A study of Mus musculus with 10 samples.

Results

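The genes of the constitutive proteasome and its activators were examined in RNA from cells sorted as CD8+ T cells out of mouse tumours. They were chosen by name: every gene symbol made of Psma, Psmb, Psmc, Psmd, Psme, Psmf or Psmg and a number, without the interferon-induced subunits Psmb8, Psmb9 and Psmb10, and present at 1 TPM or more in 5 or more of the libraries. TPM is an abundance per length of transcript, expressed as a share of a constant library sum. Of 45 such symbols 43 met the level and are the members described here, out of 13930 genes tested and 55487 listed. Psma8, an alpha subunit best known from testis, was between 0.29 and 1.76 TPM and reached 1 TPM in 4 libraries. Psmb11, a catalytic subunit of the thymus, was at 0.08 TPM or less in each library and was listed at 0 in 7 of them, and both were left out.

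The study asked about Ser452 of Ptpn22, the gene of the phosphatase Pep, which restrains signalling from the T cell receptor. Mice carried either the wild-type gene (WT) or a form with alanine in place of that serine (S452A, as in the title and labels; the design text writes S425A), and both genotypes were 8 weeks old when MC38 cells, a mouse colon carcinoma line, were injected. Tumours were collected after 18 days and digested with collagenase, and sorted cells from 5 WT and 5 S452A mice were sequenced as 1 library each from 40 ng of RNA. The labels name no promoter, Cre or cell type to which the change is limited, and every mouse bore a tumour, so there is no group without one.

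The proteasome is the barrel-shaped protease that degrades proteins tagged with ubiquitin. Its 20S core is built of a pair of outer alpha rings and a pair of inner beta rings that hold the active sites, and the 19S cap recognises, unfolds and feeds in the substrate. Other activators can take the place of the cap, dedicated chaperones assemble core and cap, and in cells exposed to interferon the catalytic beta subunits are exchanged for induced forms that alter the peptides offered on MHC class I.

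The labelled cell type was poorly represented in the RNA. Cd8a, which encodes CD8 alpha, ranged between 0.27 and 14.5 TPM, and 8 T cell markers summed to 12.1 to 126 TPM in WT and 15 to 135 TPM in S452A. The 8 macrophage markers summed to 16486 to 23049 TPM in WT and 17341 to 22930 TPM in S452A. The 4 NK cell and the 4 epithelial markers all averaged under 1 TPM. Of the 4 neutrophil markers 1 was listed at 0 in every library, while S100a9 and S100a8 averaged 11.3 and 6.84 TPM. Of the 4 B cell markers 3 averaged under 1 TPM, and Cd79b averaged 6.28 TPM. Of the 4 markers of type 1 dendritic cells 2 averaged under 1 TPM, and Xcr1 and Cd207 averaged 2.95 and 4.5 TPM. Fibroblast markers averaged 4.23 ± 0.36 (WT) and 3.68 ± 0.41 (S452A) on the log2(TPM + 1) scale (SD of 5 libraries each; 2-sided exact permutation p = 0.0397, not adjusted over the 9 lists). The proteasome values below are therefore those of a mixed population in both genotypes, and in such bulk RNA fewer cells of a type and less RNA per cell cannot be told apart.

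The genotypes had closely similar levels of the proteasome genes. None of the 43 passed the test between S452A and WT, which used limma on log2(TPM + 1) with Benjamini-Hochberg adjustment over all genes; the smallest adjusted p among them was 0.952. The same test called 0.00718% of all genes tested (1 gene). At an unadjusted p under 0.05, 0 of the 43 were called, against 4.74% of all genes (2.01% higher and 2.73% lower in S452A). In each of the 43 the libraries of the genotypes overlapped; 0.646% of all genes had groups that did not. By sign, 23 members were higher and 20 lower in S452A, and 46.6% of all genes were higher. Differences are given throughout as S452A minus WT in log2(TPM + 1), with the standard error (SE) of the fit. The median difference was 0.01 over the members and -0.02 over all genes tested. This split depends on the scaling: 16 were higher and 27 lower after rescaling without mitochondrial, histone, immunoglobulin and ribosomal genes, which moved the median of all genes to -0.04 and that of the members to -0.02.

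The intervals around these differences were narrow for most members. A 2-fold change lay outside the 95% interval of 43 of 43 members, and of 86.9% of all genes tested. A 1.5-fold change lay outside it for 42 of 43, against 51.3% of all genes, and Psmg2 was the exception. These shares are over genes of all levels tested, and genes matched in level to the members were not compared. The lowest bound of any member was -0.69 and the highest was 0.48.

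**Figure D1:**
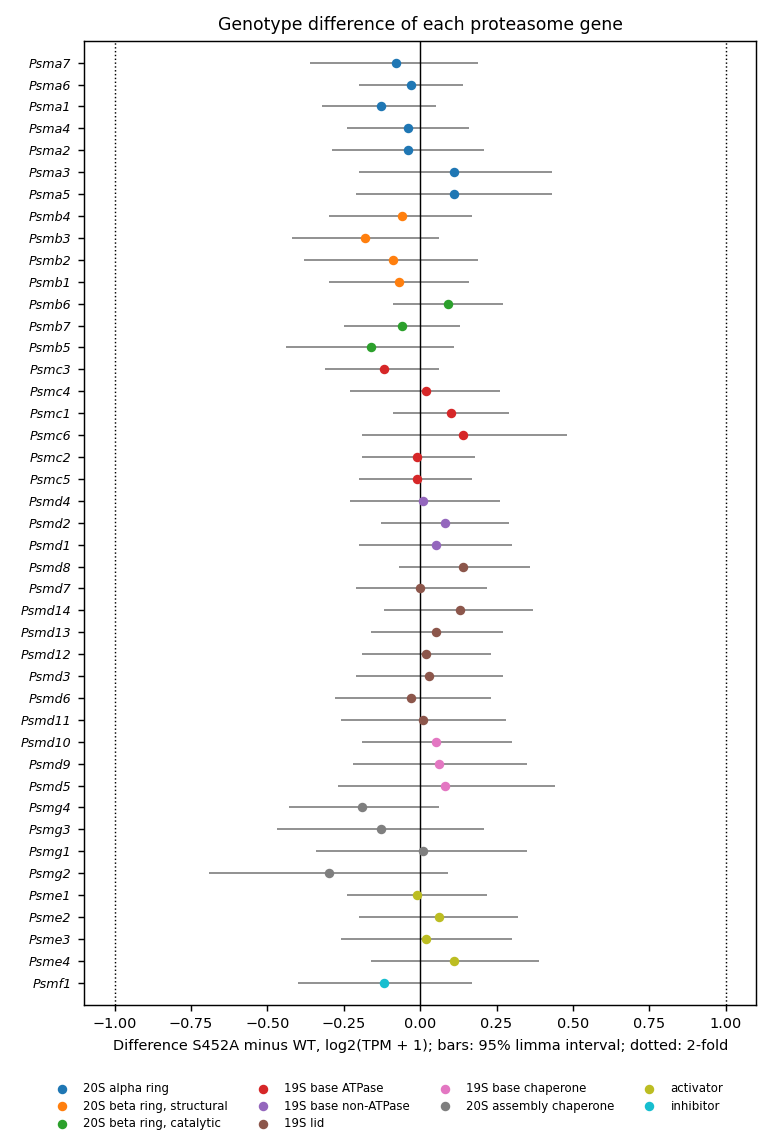
Difference between the genotypes for each of the 43 genes, S452A minus WT in log2(TPM + 1) on the horizontal axis, with points coloured by role, bars for the 95% interval of the limma fit (n = 5 per genotype) and dotted lines at a 2-fold change. Every interval lies inside the 2-fold lines and includes 0; Psmg2 sits farthest to the left at -0.30.

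All 43 genes were expressed above the median tested gene, which averaged 12.1 TPM. They ranged from 13.1 TPM for Psmf1 to 405 TPM for Psmb6 as means of 10 libraries, and 18 of 43 averaged at least 100 TPM, as 9.83% of tested genes did. In the order of replicates 1 to 5, as for all values by library, the levels summed over the members were 4760, 4720, 4930, 4726 and 4804 TPM (WT) against 4891, 4926, 4564, 4549 and 4958 TPM (S452A). The libraries of both genotypes lay between 4549 and 4958 TPM, a narrow band around means of 4788 ± 86.1 and 4778 ± 203 TPM (SD, n = 5). Single genes were steady as well: the median coefficient of variation over the 10 libraries was 11.1%, and 41 of 43 lay under 18.0%, the median of the 7645 tested genes that averaged at least 10 TPM. The median level of the members was 85.4 TPM, and genes matched to them in level were not compared. The steadiest were Psma6 at 3.80%, Psmc5 at 5.31% and Psmc2 at 5.43%, and the least steady Psmg2 at 22.5%, Psmd5 at 19.3% and Psmg3 at 17.8%. In the order of levels, most neighbours could not be separated: of the 42 adjacent pairs 5 kept their order in 10 of 10 libraries, namely Psmc3 above Psma6, Psmb7 above Psmd2, Psmd7 above Psmc2, Psmd13 above Psmd12 and Psmd5 above Psme4.

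**Figure D2:**
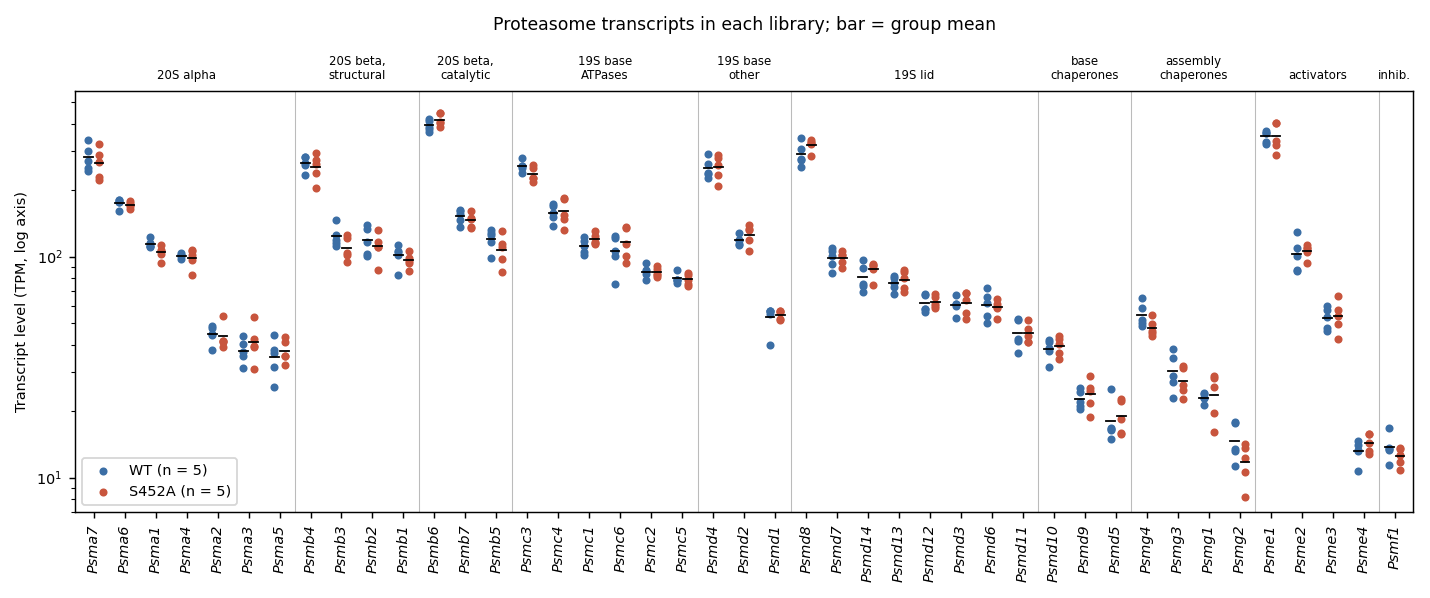
Level of each of the 43 genes in TPM on a log axis, 1 point per library, with WT at the left and S452A at the right of each gene, short bars for group means and genes arranged by role and then by mean. Points of the genotypes overlap for every gene, and levels run from Psmf1 (13.1 TPM) to Psmb6 (405 TPM).

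For some subunits, part of the TPM may be listed under near-identical copies elsewhere in the genome. Of the 43 genes, 9 have together 14 annotated copies that align at 95% identity or more along at least 0.8 of the shorter transcript. All of these copies are annotated as pseudogenes except Psme2b, which is annotated as protein-coding. Most have predicted-gene names, and TPM can be divided between a gene and such copies. The microRNA genes Mir686, which shares exonic bases with Psmb5, and Gm22920, not listed as sharing any, met the same rule for Psmb5 and were left out. For Psma3, Psma5, Psmb3 and Psme2 most of the TPM was listed under the copies. Psma3 averaged 39.3 TPM and its copies 191 TPM, of which Gm13835 (chr6:31141979-31142663, minus strand) held 157, 169, 178, 207 and 184 TPM (WT) against 206, 201, 176, 156 and 189 TPM (S452A). The copy was thus higher than Psma3 in all 10 libraries, with Psma3 at 12.4% to 24.6% of the sum. All 665 bases aligned between a Psma3 transcript and the Gm13835 transcript were identical, with 0 mismatches. Psma5 averaged 36.3 TPM against 124 TPM for Gm12989 and Gm8394 together, and held 17.1% to 26.8% of the sum. Psme2 averaged 104 TPM, whereas Psme2b (chr11:48945354-48946190, minus strand) stood at 387, 416, 396, 389 and 337 TPM (WT) against 362, 398, 339, 294 and 425 TPM (S452A), with 5 mismatches over 794 aligned bases. Reads from Psme2 and Psme2b can be told apart only where they cover 1 of those 5 bases or sequence outside the alignment.

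To show how alike these sequences are, the same 60 coding bases (301 to 360, counted from the A of the start codon of the member's transcript) are printed for each gene and its copies from the GENCODE M21 transcripts (GRCm38), 5′ to 3′, with capitals at bases that differ from the member. The Psma3 window (chromosome 12, across an exon boundary) has no capital in Gm13835 (chr6:31142387-31142446, minus strand), the copy that held most of the TPM, and 3 each in Gm5406 (chr16:45411881-45411940, plus strand) and Gm4742 (chr14:52369330-52369389, minus strand). The Psma5 window (chr3:108267802-108267861, plus strand) has 1 in Gm8394 (chr10:85313869-85313928, plus strand) and 2 in Gm12989 (chr4:135716234-135716293, minus strand). The Psme2 window (chr14:55589301-55589360, minus strand) has 1 in Psme2b (chr11:48945759-48945818, minus strand).
Psma3: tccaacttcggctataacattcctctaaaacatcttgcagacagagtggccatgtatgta
Gm13835: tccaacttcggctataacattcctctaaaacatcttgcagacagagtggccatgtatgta
Gm5406: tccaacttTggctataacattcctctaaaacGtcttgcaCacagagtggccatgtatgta
Gm4742: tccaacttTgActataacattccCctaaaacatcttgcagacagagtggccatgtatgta
Psma5: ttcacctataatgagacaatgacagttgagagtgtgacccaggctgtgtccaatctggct
Gm8394: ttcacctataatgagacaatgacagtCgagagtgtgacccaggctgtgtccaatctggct
Gm12989: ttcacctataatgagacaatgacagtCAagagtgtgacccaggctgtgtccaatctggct
Psme2: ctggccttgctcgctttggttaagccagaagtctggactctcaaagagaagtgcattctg
Psme2b: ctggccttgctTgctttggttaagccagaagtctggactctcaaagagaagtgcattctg

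Psmb3 averaged 116 TPM against 144 TPM for Gm4950, Gm5356 and Gm6467 together, and held 40.3% to 49.1% of the sum. The other 5 members held more of the sum than their copies did: Psma4 60.7% to 69.7% with Gm6542, Psmb5 62.5% to 73.0% with Gm3375 and Psmd11 62.1% to 77.0% with Gm14048. Psmd2 held 82.3% to 87.8% with Gm5422, and Psmc1 92.8% to 96.3% with AC110212.1. With each gene summed with its copies, Psma3 reached 205, 211, 223, 258 and 229 TPM (WT) and 248, 249, 222, 216 and 237 TPM (S452A). Its coefficient of variation over libraries went from 16.5% alone to 7.67% summed. No sum passed the test between genotypes (limma, smallest adjusted p = 0.952 over all genes), and the differences of Psma5 (0.11 alone, -0.04 summed) and Psme2 (0.06 alone, -0.05 summed) changed sign. These values are the authors' division of reads as listed, and the true source of the reads was not tested. TPM is per length, and the Gm13835 transcript has 685 bases against 2846 in the Psma3 transcript aligned to it. The sums and shares therefore add TPM as listed and are not a recount of reads under the member.

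**Figure D3:**
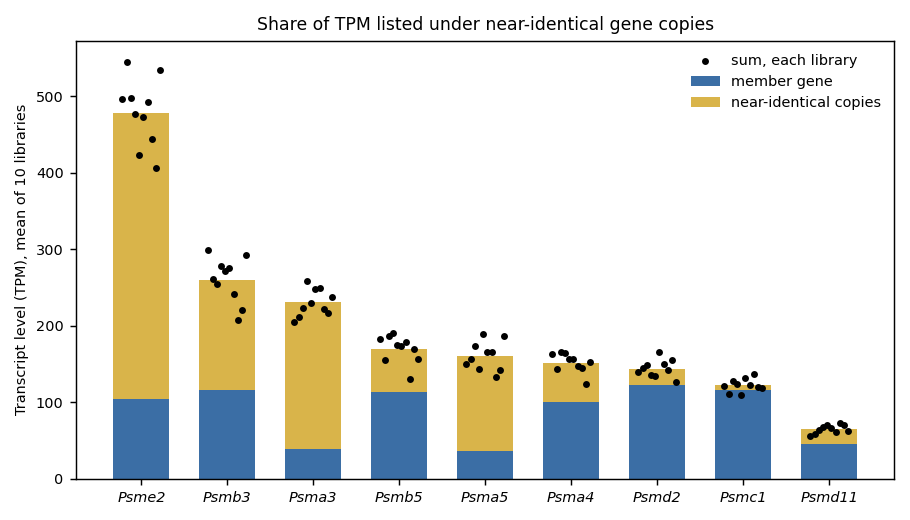
Mean TPM over 10 libraries of the 9 genes that have near-identical annotated copies (blue) with the summed TPM of those copies stacked above (yellow), on a linear axis from 0; points give the sum in each library. For Psme2, Psma3, Psmb3 and Psma5 the yellow part is the larger, at 374, 191, 144 and 124 TPM.

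Within the alpha ring, whose 7 subunits form the gate of the core and are present in equal numbers in the protein complex, transcript levels were far from equal. As listed, Psma7 was the highest at 274 TPM and Psma5 the lowest at 36.3 TPM, a 7.53-fold span on this per-length scale. With copies summed the span was 6.21-fold, the lowest was Psma2 at 44 TPM, and 6 of 7 in place of 3 of 7 averaged at least 100 TPM; the coefficient of variation between subunits went from 78.7% to 46.1%. Psma7 stood at 300.2, 253, 339, 244 and 270.2 TPM (WT) against 269, 323, 222, 228 and 287 TPM (S452A). Its 2 highest libraries were WT replicate 3 and S452A replicate 2, so that both genotypes covered nearly the same range. Psma6 stood at 177, 179.7, 161, 176 and 181 TPM (WT) against 175, 171, 178, 165 and 169 TPM (S452A). The low library was WT replicate 3, and the 9 others lay between 165 and 181 TPM.

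Psma1, the alpha subunit of smallest p, was at 116, 110.2, 112, 112 and 123 TPM (WT) against 106, 108, 103, 93.1 and 113 TPM (S452A). The groups overlapped only in that S452A replicate 5 (113 TPM) exceeded 3 WT libraries, among which 110.2 TPM was the lowest value. Its difference was -0.13 ± 0.09 (SE; 95% interval -0.32 to 0.05, limma unadjusted p = 0.144, adjusted p = 0.952). By a 2-sided exact permutation test on this gene alone p was 0.0317, not adjusted over the genes, and Psma1 was 1 member of 43 under 0.05 by that test, by which 4.46% of all genes tested were under 0.05. Psma5 was listed at 25.6, 31.7, 43.95, 36.5 and 37.7 TPM (WT) against 41.2, 35.5, 35.6, 32.3 and 43.1 TPM (S452A), lowest in WT replicate 1 and highest in WT replicate 3, and differed by 0.11 ± 0.15, or by 0.0046 without WT replicate 1. Psma2, Psma3, Psma4 and Psma7 had differences of -0.04, 0.11, -0.04 and -0.08, and over the ring 2 subunits were higher and 5 lower in S452A, with a median of -0.04.

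The beta ring carries the proteolytic sites on Psmb5, Psmb6 and Psmb7, with chymotrypsin-like, caspase-like and trypsin-like specificity. Of its 7 subunits 6 were lower in S452A by sign, with a median of -0.07, and Psmb6 was the exception; none passed. Psmb6, the highest of the 43 genes as listed, was at 409, 386, 367, 421 and 377 TPM (WT) against 401, 385, 448, 445 and 406 TPM (S452A). Its 2 highest values were S452A replicates 3 and 4, and its difference was 0.09 ± 0.08 (SE, 95% interval -0.09 to 0.27). Psmb5 was at 128, 98.4, 132, 125 and 116 TPM (WT) against 114, 130.3, 85.01, 110.5 and 97.2 TPM (S452A), with the lowest value in S452A replicate 3 and a difference of -0.16 ± 0.13 (interval -0.44 to 0.11). Psmb7 was at 162, 136, 161, 147 and 156 TPM (WT) against 149, 149.5, 135, 137 and 161 TPM (S452A), and its groups had almost the same range. Its difference was -0.06 ± 0.09. Psmb7 shares 405 exonic bases on the opposite strand with Nek6 (24.1 TPM), and for Psmb5 the microRNA gene Mir686, listed at 125 TPM, lies on the same strand over 109 of its exonic bases. The library kit keeps strand, but whether the counting used it is not given in the sources used here.

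Among the structural beta subunits Psmb4 was the highest, at 265, 260.1, 282, 234 and 283 TPM (WT) against 261, 294, 205, 238 and 274 TPM (S452A). Low and high libraries were found in both genotypes, with S452A replicate 3 the lowest. Psmb3 was at 147, 115, 119, 112 and 125 TPM (WT) against 121, 103, 102, 94.3 and 125 TPM (S452A). Its difference was -0.18 ± 0.11 (SE, interval -0.42 to 0.06, limma unadjusted p = 0.133, adjusted p = 0.952), and -0.15 with its copies summed. Psmb1, the lowest of the ring, was at 106, 82.1, 102, 105 and 113 TPM (WT) against 98.2, 95.8, 93.8, 86.4 and 106 TPM (S452A), and its lowest library was WT replicate 2. Psmb2 averaged 118 ± 17.3 TPM (WT) and 111 ± 16.4 TPM (S452A) (SD, n = 5), a difference of -0.09. Highest over lowest subunit was 4.09-fold in this ring, as listed and with copies summed.

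Taken as a sum, the 14 core subunits were at 2156, 1925, 2108, 2013 and 2107 TPM (WT) against 2026, 2097, 1894, 1891 and 2114 TPM (S452A). The sums overlapped, with means of 2062 ± 92.3 and 2004 ± 107 TPM (SD, n = 5), and 3 of the 14 were higher and 11 lower in S452A with a median difference of -0.06. The 17 cap subunits were at 1845, 2032, 2063, 2000 and 2025 TPM (WT) against 2115, 2036, 1999, 2000 and 2070 TPM (S452A). Here 13 were higher and 4 lower, with a median of 0.02. Of all genes tested 46.6% were higher. The cap was lowest in WT replicate 1, at 1845 TPM against 1999 to 2115 TPM in the 9 others, and without that library 9 cap subunits were higher and 8 lower. The cap split was likewise 9 and 8 after quantile normalization, and 8 higher and 9 lower after rescaling without mitochondrial, histone, immunoglobulin and ribosomal genes. The core split stayed at 3 and 11 under those 3 settings. It was 4 and 10 without S452A replicate 3 or without S452A replicate 4, and 2 and 12 with copies summed. The difference between core and cap was not tested.

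The induced subunits Psmb8, Psmb9 and Psmb10, which replace Psmb5, Psmb6 and Psmb7, offered a ratio that does not depend on the scaling of a library. Psmb8 over Psmb5 was 2.67, 3.48, 2.43, 2.53 and 2.41 (WT) against 2.19, 2.3, 3.42, 2.11 and 3.63 (S452A). As listed, the ratio thus exceeded 2 in each library, and WT replicate 2 and S452A replicates 3 and 5 stood above 3. With Gm3375 added to Psmb5 it was 1.88, 2.22, 1.72, 1.67 and 1.6 (WT) against 1.44, 1.68, 2.24, 1.38 and 2.26 (S452A), above 2 in 3 libraries and above 1 in all 10, and it differed by -0.04 on the log2 scale (exact permutation, adjusted p = 0.881). Psmb10 over Psmb7 was 1.5, 2.09, 1.6, 1.48 and 1.55 (WT) against 1.48, 1.5, 1.34, 1.5 and 1.77 (S452A), also above 1 in each library. Psmb9 over Psmb6 was 0.343, 0.388, 0.397, 0.279 and 0.318 (WT) against 0.25, 0.358, 0.278, 0.214 and 0.35 (S452A), below 1 in each library. None of these ratios, nor that of the activator pair Psme2 over Psme1, differed between genotypes in 2-sided exact permutation tests adjusted over the 4 ratios. The largest difference was that of Psmb9 over Psmb6, -0.26 on the log2 scale (exact permutation p = 0.167, adjusted p = 0.667), with 0.345 ± 0.0491 (WT) and 0.290 ± 0.0626 (S452A; SD, n = 5). The difference was -0.10 for Psmb10 over Psmb7 and -0.01 for Psmb8 over Psmb5 (exact permutation, adjusted p = 0.841 and 0.976), and the former was -0.01 without WT replicate 2. A design of 5 against 5 can reach an exact p of 0.00794 at the smallest.

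**Figure D4:**
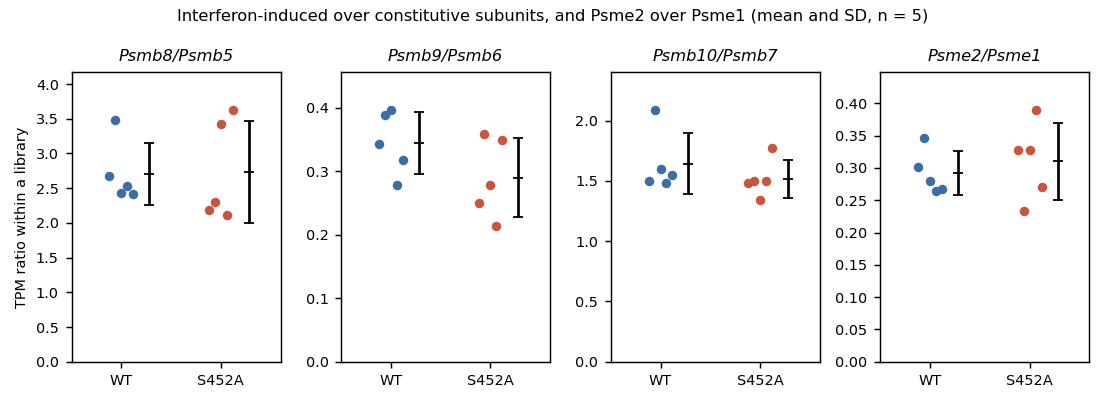
TPM ratio within each library of the induced over the constitutive catalytic subunits and of Psme2 over Psme1, WT and S452A, with points for single libraries and a bar for mean and SD (n = 5); every axis starts at 0. The genotypes overlap in each panel, and the means of Psmb9/Psmb6 are 0.345 in WT and 0.290 in S452A.

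The base of the cap holds 6 ATPases, Psmc1 to Psmc6, which form the unfolding ring. They spanned 3.11-fold in level, less in these means than either core ring, from Psmc5 at 79.2 TPM to Psmc3 at 247 TPM. Psmc3 was at 239, 279, 251, 257 and 258 TPM (WT) against 259.7, 227, 216, 228 and 251 TPM (S452A). WT replicate 2 was the highest and S452A replicate 3 the lowest, and the difference was -0.12 ± 0.09 (SE, interval -0.31 to 0.06, limma unadjusted p = 0.180, adjusted p = 0.952). The neighbouring gene Slc39a13, at 15.3 TPM, shares 215 exonic bases with Psmc3 on the opposite strand. Psmc1 was at 112, 105, 122, 118 and 102 TPM (WT) against 124, 116, 129.9, 115 and 114 TPM (S452A), a difference of 0.10 ± 0.09 (interval -0.09 to 0.29). Psmc6 was the most variable ATPase, at 75.1, 101, 124, 106 and 121 TPM (WT) against 137, 134, 93.8, 101 and 115 TPM (S452A). WT replicate 1 was its lowest library and S452A replicates 1 and 2 its highest, and the difference was 0.14 ± 0.15 (interval -0.19 to 0.48), or 0.03 without WT replicate 1.

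Psmc2 and Psmc5 were, after Psma6, the steadiest of the 43 genes. Psmc2 was at 78.3, 83.2, 86.8, 93.7 and 85.97 TPM (WT) against 91.04, 83.2, 81.1, 82.96 and 87.8 TPM (S452A). Psmc5 was at 75.9, 78.5, 86.8, 78.4 and 78.5 TPM (WT) against 78.4, 75.4, 82.7, 73.2 and 84.3 TPM (S452A). Each genotype covered nearly the same range for both genes, and both differed by -0.01 (SE 0.09), with intervals of -0.19 to 0.18 and -0.20 to 0.17. Psmc4 averaged 158 ± 14.5 TPM (WT) and 160 ± 22.2 TPM (S452A) (SD, n = 5).

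The base also holds the scaffold subunits Psmd1 and Psmd2 and the ubiquitin receptor Psmd4. Psmd4 was the highest of these, at 236, 263, 292, 226 and 239 TPM (WT) against 209, 289, 279, 234 and 261 TPM (S452A), with high and low libraries in both genotypes. Psmd1 was at 39.7, 56.9, 56.96, 55.1 and 56.96 TPM (WT) against 55.97, 56.5, 56.5, 51.6 and 52.2 TPM (S452A). A single library, WT replicate 1, lay at 39.7 TPM and the 9 others between 51.6 and 57.0 TPM, so the difference of 0.05 turned to -0.05 without it. Psmd2 averaged 119 ± 5.56 TPM (WT) and 126 ± 13.4 TPM (S452A) (SD, n = 5), a difference of 0.08.

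In the lid, the part of the cap that removes ubiquitin from the substrate, 7 of 8 subunits were higher in S452A by sign and 1 lower, with a median of only 0.03. Of all genes tested 46.6% were higher. The 7 include Psmd7 at 0.00097 and Psmd11 at 0.0068, which both turned lower after quantile normalization. Without WT replicate 1 Psmd3, Psmd7 and Psmd11 turned lower and Psmd6 turned higher. The deubiquitinating enzyme Psmd14 was at 68.9, 73.6, 74.8, 88.6 and 96.5 TPM (WT) against 91.7, 90.7, 87.8, 74.7 and 92.3 TPM (S452A). WT values were spread from 68.9 to 96.5 TPM, and 4 of the S452A libraries stood between 87.8 and 92.3 TPM with replicate 4 below them. Its difference was 0.13 ± 0.11 (SE, interval -0.12 to 0.37, limma unadjusted p = 0.294, adjusted p = 0.952). Psmd8 was the highest lid subunit by a wide margin, at 255, 345, 272, 277 and 306 TPM (WT) against 326, 284, 337, 329.9 and 325 TPM (S452A). WT replicate 2 exceeded each S452A library, and S452A replicate 2 lay among the WT values. The difference was 0.14 ± 0.10 (interval -0.07 to 0.36); without WT replicate 2 it was 0.21, at an unadjusted limma p of 0.0492 and an adjusted p of 0.872.

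Psmd11, the lowest lid subunit as listed, was at 42.2, 36.6, 41.6, 52.4 and 51.8 TPM (WT) against 43.7, 41.2, 46.98, 51.4 and 41.1 TPM (S452A), a difference of 0.01 ± 0.12. Psmd7, the partner of Psmd14 without its activity, averaged 98.6 ± 10.3 TPM (WT) and 98.5 ± 6.84 TPM (S452A) (SD, n = 5) and so differed by 0.00. Psmd3, Psmd6, Psmd12 and Psmd13 averaged between 59.8 and 77.1 TPM, with differences of 0.03, -0.03, 0.02 and 0.05. On the opposite strand, Sirt3 shares 342 exonic bases with Psmd13, at 7.83 TPM.

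The chaperones that build the base, Psmd5, Psmd9 and Psmd10, were low compared with the subunits they place. Psmd10, also known as gankyrin, was at 31.7, 37.2, 41.96, 40.9 and 38.4 TPM (WT) against 43.6, 40.01, 42.5, 34.4 and 36.7 TPM (S452A), and Psmd5 at 16.7, 14.96, 16.5, 25.2 and 16.4 TPM (WT) against 18.4, 22.6, 15.8, 15.9 and 22.2 TPM (S452A). WT replicate 4 was the highest library for Psmd5, and the other WT libraries lay between 15 and 16.7 TPM. All 3 were higher in S452A by sign, by 0.05, 0.08 and, for Psmd9, 0.06, and none passed.

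The chaperones of the core, Psmg1 to Psmg4, included the lowest differences of the set. They act as the pairs Psmg1 with Psmg2 and Psmg3 with Psmg4 in assembling the alpha ring. Psmg2 was at 13.5, 11.2, 17.7, 17.8 and 13.2 TPM (WT) against 13.7, 12.2, 8.18, 10.6 and 14.1 TPM (S452A). The lowest library was S452A replicate 3 and the 2 highest were WT replicates 3 and 4, and the other 7 lay between 10.6 and 14.1 TPM. Its difference was -0.30 ± 0.18 (SE, interval -0.69 to 0.09, limma unadjusted p = 0.118, adjusted p = 0.952), and it was the only member for which a 1.5-fold change was inside the interval. Psmg4 was at 64.8, 49.97, 51.4, 58.2 and 48.4 TPM (WT) against 54.2, 49.6, 45.9, 44.99 and 43.7 TPM (S452A), with a difference of -0.19 ± 0.11 (interval -0.43 to 0.06). WT replicates 1 and 4 were its highest libraries. Psmg3 was at 38.2, 22.9, 34.8, 28.9 and 27.02 TPM (WT) against 26.4, 31.9, 24.9, 31.4 and 22.6 TPM (S452A), a difference of -0.13 ± 0.16 that was -0.04 without WT replicate 1. Psmg1 was at 23, 22.9, 23.9, 24.1 and 21.2 TPM (WT) against 28.2, 28.9, 19.6, 16.1 and 25.6 TPM (S452A). WT libraries of Psmg1 stayed between 21.2 and 24.1 TPM and those of S452A ranged from 16.1 to 28.9 TPM around nearly the same mean, a difference of 0.01 ± 0.16. Summed, the 4 chaperones were at 123 ± 13.8 TPM (WT) and 111 ± 11.2 TPM (S452A) (SD, n = 5).

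Psme1 and Psme2 form the interferon-responsive activator ring that docks on the core in place of the cap. Psme1, as listed the second most abundant of the 43, was at 363, 371, 361, 329.7 and 324 TPM (WT) against 335, 401, 320.1, 289 and 403 TPM (S452A). The S452A libraries held both the lowest and the highest values, and the difference was -0.01 ± 0.11 (interval -0.24 to 0.22). Psme2, as listed apart from Psme2b, was at 109, 129, 101, 87.1 and 86.5 TPM (WT) against 109.8, 93.9, 105, 113 and 109 TPM (S452A), and differed by 0.06 ± 0.12. The ratio of Psme2 to Psme1 was 0.292 ± 0.0343 (WT) and 0.310 ± 0.0600 (S452A; SD, n = 5; exact permutation, adjusted p = 0.847). With Psme2b added to Psme2 it was above 1 in every library, at 1.39 ± 0.0638 (WT) against 1.35 ± 0.0769 (S452A; SD, n = 5), and its difference turned from 0.07 to -0.04 on the log2 scale (exact permutation p = 0.381, adjusted p = 0.561). The genes lie near each other on chromosome 14 (Psme1 promoter at chr14:55578244-55578493, Psme2 promoter at chr14:55591022-55591271). Across libraries their levels as listed, with Psme2 apart from Psme2b, had a Pearson r of 0.11 (permutation p = 0.772). Psme2 as listed held 18.3% to 27.8% of its sum with Psme2b, so this r covers the smaller part. The sum was at 496, 545, 497, 476 and 423 TPM (WT) against 472, 492, 444, 406 and 534 TPM (S452A), and its correlation with Psme1 is not given here.

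Psme3, a nuclear activator that works without ubiquitin, was at 46.2, 57.3, 59.7, 53.1 and 47.7 TPM (WT) against 66.4, 57.3, 42.5, 54.1 and 49.5 TPM (S452A). S452A replicate 1 was its highest and S452A replicate 3 its lowest library. Psme4, the activator linked to degradation of acetylated histones, was low, at 10.8, 13.1, 13.3, 14.7 and 14.1 TPM (WT) against 15.8, 14.3, 15.7, 12.8 and 13.2 TPM (S452A), and differed by 0.11 ± 0.13 (interval -0.16 to 0.39). The proteasome inhibitor Psmf1 was the lowest of all, at 16.8, 11.4, 13.4, 13.6 and 13.3 TPM (WT) against 13.5, 12.7, 11.8, 10.8 and 13.6 TPM (S452A). WT replicate 1 was its highest library, and it differed by -0.12 ± 0.13 (interval -0.40 to 0.17).

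Of the other genes of the pathway, none passed either. The list held 36 genes: accessory cap subunits, shuttles and ubiquitin receptors, assembly and nuclear import factors, ubiquitin-activating enzymes and ligases, ubiquitin genes, the transcription factors of the proteasome and the induced subunits. Of these 35 were matched and tested, Paaf1 was not matched, and 0 passed (limma, smallest adjusted p = 0.952), with 16 higher, 19 lower and a median of -0.02. By unadjusted p under 0.05 there was 1, Ufd1, a cofactor of the unfoldase Vcp. Ufd1 was at 51.8, 56.8, 53.9, 51.1 and 52.3 TPM (WT) against 41.5, 41.2, 30.3, 58.9 and 35.2 TPM (S452A). Of the S452A libraries, 4 lay below all WT libraries and replicate 4 above them, a difference of -0.39 ± 0.15 (SE, limma unadjusted p = 0.0253, adjusted p = 0.952). The shuttle Ubqln4 averaged 14 ± 3.36 TPM (WT) and 10.8 ± 1.75 TPM (S452A), a difference of -0.33.

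On the higher side were the ubiquitin ligase Ube3a at 20.6 ± 2.23 TPM (WT) and 24.4 ± 3.09 TPM (S452A), the ubiquitin-activating enzyme Uba6 at 7.19 ± 1.06 TPM (WT) and 8.7 ± 1.58 TPM (S452A) and the proteasome-binding protein Zfand5 at 127 ± 14.6 TPM (WT) and 147 ± 25.5 TPM (S452A) (SD, n = 5). Their differences were 0.23, 0.24 and 0.19, and none passed. Nfe2l1, the transcription factor that raises proteasome genes when the protease is inhibited, was at 60.2, 82.7, 72.9, 65.7 and 54.4 TPM (WT) against 64.6, 59.7, 55.02, 66.95 and 47.3 TPM (S452A), a difference of -0.19 ± 0.13 (interval -0.48 to 0.11). The induced subunits were at 320 ± 25.8 TPM (WT) and 285 ± 46.4 TPM (S452A) for Psmb8, 135 ± 14.9 TPM (WT) and 120 ± 21.4 TPM (S452A) for Psmb9 and 248 ± 24.4 TPM (WT) and 223 ± 38.7 TPM (S452A) for Psmb10 (SD, n = 5), differences of -0.18, -0.18 and -0.16 that did not pass. Opposite to Psmb9, the peptide transporter gene Tap1 (105 TPM) shares 212 exonic bases.

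The 43 transcripts, of subunits, activators, chaperones and an inhibitor of 1 machine, showed weak covariation as listed across the 10 libraries. For the 9 members with near-identical copies, r was taken on the member's own TPM, and values with copies summed are not given. The median Pearson r over the 903 pairs of members was 0.08 and 58.0% were above 0, against 0.01 and 51.1% over all pairs of genes tested. The points of each pair share libraries and the TPM total, and these medians are a description without a test. Rescaling without mitochondrial, histone, immunoglobulin and ribosomal genes gave a median of 0.17, against 0.02 for all genes. By part of the machine, the median was 0.44 within the beta ring, 0.10 within the alpha ring, 0.27 between alpha and beta rings, 0.20 among the ATPases, 0.07 within the lid and 0.40 among the core chaperones. Between core and cap it was 0.02.

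The beta ring divided into a group of subunits that varied together and Psmb6. The median r of a subunit with the other 6 ran from 0.33 for Psmb5 to 0.73 for Psmb7, whereas Psmb6 was negative with 6 of 6, at a median of -0.48. In the alpha ring Psma3 as listed, which held 12.4% to 24.6% of its sum with its copies, was negative with 6 of 6 other subunits, at a median of -0.33. In S452A replicate 4 Psma3 as listed was at its highest, 53.2 TPM, while its sum with copies was the lowest of the S452A libraries, 216 TPM. The sign of its r with copies summed is not given, so the negative r holds only for Psma3 as listed. Psmb6 and Psmb4 gave r = -0.86 (permutation p = 0.00091, adjusted p = 0.218) and Spearman rho = -0.83 (permutation p = 0.00466, adjusted p = 0.423); without the 2 libraries farthest from the median of Psmb4, r was -0.81. The closest pair of the 903 was Psmd10 with Psme4, at r = 0.91 (permutation p = 0.00022, adjusted p = 0.199) and rho = 0.92 (permutation p = 0.00055, adjusted p = 0.423), and r was 0.77 without 2 libraries. These pairs were named after their values were seen. Adjusted over the 903 pairs, 0 passed by Pearson r (smallest 0.199) or by Spearman rho (smallest 0.423), and 80 pairs, or 8.86%, were under an unadjusted 0.05, of which 62 had r above 0. By size alone, 9.08% of member pairs were beyond 0.632 in either direction, against 7.84% of pairs of all tested genes and 10% of pairs of tested genes that averaged at least 10 TPM. In the positive direction alone, the shares above 0.632 were 6.98%, 4.25% and 5.45%.

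**Figure D5:**
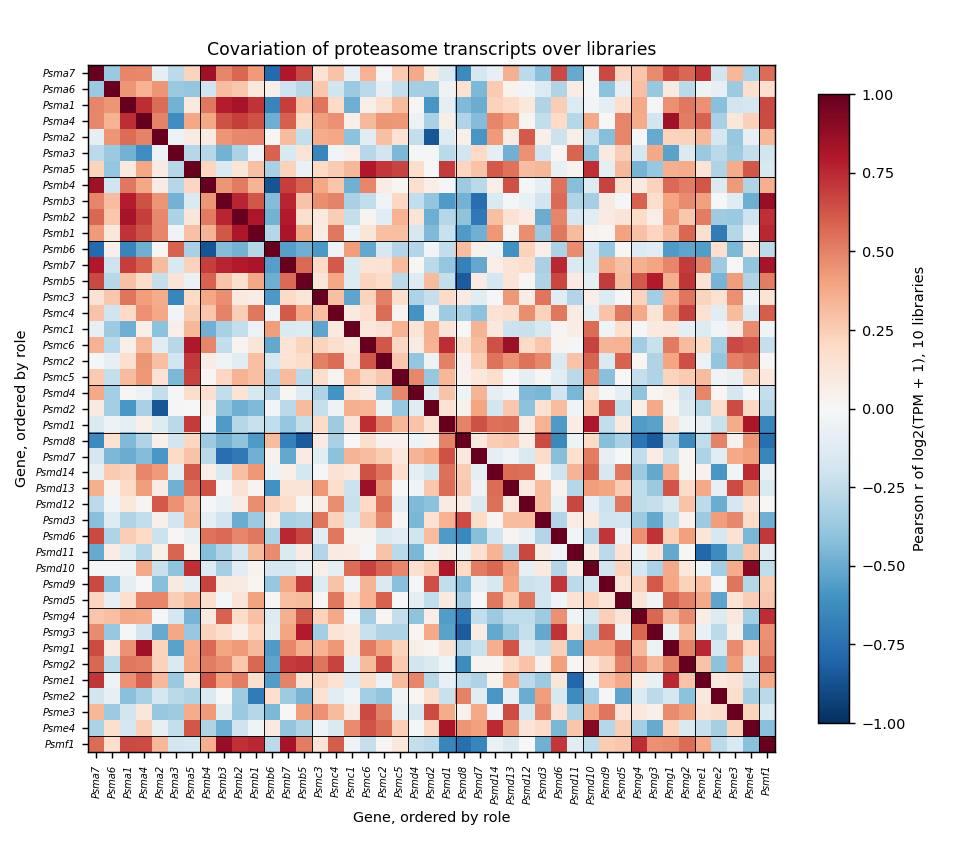
Pearson r between the log2(TPM + 1) values of each pair of the 43 genes over 10 libraries, red for positive and blue for negative, with genes in the order of the plot of levels and lines between roles. The beta subunits form a red block (median r within the ring 0.44) crossed by the blue row and column of Psmb6 (median -0.48 with the other 6).

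Direct partners in the complex gave no correlation that passed, on TPM as listed without copies summed. Of 10 pairs named for their known contacts or for exchange in the core, 0 passed by Pearson r or Spearman rho (permutation tests with 100000 resamples, adjusted p of at least 0.357). The chaperone pairs had the highest r among partners, 0.50 for Psmg1 with Psmg2 (rho 0.60, permutation p = 0.143 and 0.0726) and 0.57 for Psmg3 with Psmg4 (rho 0.52, permutation p = 0.0823 and 0.135). Without S452A replicates 2 and 4 the first was 0.59. The latter rested on WT replicates 1 and 3, without which r was 0.23. The ATPase neighbours gave r of 0.15 for Psmc1 with Psmc2, 0.03 for Psmc4 with Psmc5 and 0.23 for Psmc3 with Psmc6 (rho 0.18, -0.04 and 0.27, permutation p of at least 0.448). Without the 2 libraries farthest from the median of the first gene these were 0.56, 0.30 and 0.26; for Psmc1 with Psmc2 those libraries were WT replicate 5 and S452A replicate 3. Psmd7 and Psmd14, which sit side by side in the lid, gave -0.10 (rho -0.21, permutation p = 0.787 and 0.562), and -0.69 without WT replicate 1 and S452A replicate 5. Of the exchanged subunits, Psmb5 with Psmb8 gave 0.00 (rho 0.02, permutation p = 0.996 and 0.973) and Psmb6 with Psmb9 -0.53 (rho -0.45, permutation p = 0.114 and 0.191), or 0.21 and -0.33 without 2 libraries each. Psmb7 with Psmb10 gave 0.51 (rho 0.61, permutation p = 0.132 and 0.0671), and 0.87 without WT replicate 2 and S452A replicate 3.

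Since the libraries differed in cell content, each gene was also set against the mean of 4 marker lists, 172 relations in all, of which 0 passed (permutation tests with adjustment over the 172, smallest adjusted p = 0.273 by Pearson r). With the T cell markers 22 of 43 genes had a positive r and 21 a negative one, with a median of 0.02, the same as over all genes tested. With the macrophage markers 10 were positive and 33 negative (median -0.20, against -0.07 over all genes, of which 42.7% were positive). Here 0 members had an unadjusted permutation p under 0.05, against 6.32% of all genes. With the 8 proliferation genes 31 were positive (median 0.26; 0.06 over all genes, of which 54.3% were positive), and 9 had an unadjusted p under 0.05, which is 20.9% of the members and close to the 20.1% of all genes tested. Proliferation genes averaged 5.32 ± 0.18 (WT) and 4.97 ± 0.39 (S452A) on the log2(TPM + 1) scale (SD, n = 5, exact permutation p = 0.111), and their part in the differences above was not tested. The closest of these was Psmb3, with r = 0.79 (permutation p = 0.00540, adjusted p = 0.273) and rho = 0.89 (permutation p = 0.00120, adjusted p = 0.206), and r was 0.71 without the 2 farthest libraries. Psmb6 again had the opposite sign, r = -0.77 (permutation p = 0.00848, adjusted p = 0.273) and rho = -0.58 (permutation p = 0.0879, adjusted p = 0.722), but r was -0.26 without 2 libraries, so the relation rested on those. With the fibroblast markers 28 were positive and 15 negative (median 0.15; 0.09 over all genes, of which 57.9% were positive), and 3 had an unadjusted p under 0.05, or 6.98% against 10.9% of all genes. Of these, Psmb5 had r = 0.82 (permutation p = 0.00178, adjusted p = 0.273) and rho = 0.77 (permutation p = 0.0128, adjusted p = 0.722), and 0.61 without 2 libraries. Psmg2 had r = 0.82 as well (permutation p = 0.00616, adjusted p = 0.273), with rho = 0.55 (permutation p = 0.104, adjusted p = 0.769) and 0.40 without 2 libraries. The third was Psmd8, with r = -0.65 (permutation p = 0.0348, adjusted p = 0.561), rho = -0.61 (permutation p = 0.0664, adjusted p = 0.722) and -0.60 without 2 libraries.

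The start regions of these genes were searched for short motifs because the members, of unlike level and weakly correlated, are known as jointly controlled genes. RefSeq promoters (GRCm38.p6, 250 bases before to 50 after the start) were matched for 36 of the 43 genes, with 39 entries, and each motif was searched on both strands. CCGGAAG, the core letters of the site of ETS factors, was in 38.5% of these entries, in 18.1% of the promoters of tested genes and in 8.86% of all promoters. The genes with it were Psma6, Psmc1, Psmc2, Psmc6, Psmd2, Psmd4, Psmd6, Psmd11, Psmd12, Psmd13, Psme3, Psme4, Psmg1 and Psmg3. Promoters were matched for 14 of the 17 cap subunits, 7 of 7 alpha subunits and 4 of 7 beta subunits, and shares were not compared between them. A pair of GAAA blocks spaced by 2 bases, which resembles an interferon response element, was in 12.8% (Psmb3, Psmd4, Psmd9, Psme1 and Psmg4), against 3.41% for tested genes and 3.44% for all. TGACNNNGC, the core of the antioxidant response element that Nfe2l1 and Nfe2l2 bind, was in 15.4%, near the 14.2% of tested genes. The genes with it were Psmb5, Psmb6, Psmc6, Psmd9, Psmd12 and Psme4. CCAAT was in 30.8% against 38.1% for tested genes, and TGACTCA in 2.56% against 4.01%. A match describes letters in these windows and no binding was measured.

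The following regions are shown: the 250 bases before the start of Psmb6, the most abundant member as listed (chr11:70525107-70525356, plus strand, TGACNNNGC match in capitals), and before the first of the 2 listed starts of Psmc2, one of the steadiest (chr5:21785025-21785274, plus strand, match to CCGGAAG on the opposite strand in capitals).
Psmb6: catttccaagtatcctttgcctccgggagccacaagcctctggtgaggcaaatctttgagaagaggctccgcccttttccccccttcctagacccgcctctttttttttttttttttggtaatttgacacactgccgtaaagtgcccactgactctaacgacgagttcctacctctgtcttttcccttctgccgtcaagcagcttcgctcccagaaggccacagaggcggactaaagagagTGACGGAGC
Psmc2: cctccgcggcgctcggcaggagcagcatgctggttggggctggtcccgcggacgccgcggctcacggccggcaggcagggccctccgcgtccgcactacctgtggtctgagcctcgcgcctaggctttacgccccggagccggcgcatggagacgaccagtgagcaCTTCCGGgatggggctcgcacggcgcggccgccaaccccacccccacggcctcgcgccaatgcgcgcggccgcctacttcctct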

How the data were processed

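RNA of cells sorted from tumours of 5 WT and 5 S452A mice was sequenced, and the labels number separate mice. The submitters' processing notes name GRCm38.p6, STAR 2.7.9a and RSEM 1.3.0. No annotation, strand setting or parameter is given in the sources used here. In their table the authors deposited TPM, which keeps no counts, so depth is unknown and no counting interval is given. A change in a large transcript class shifts the TPM of all others.

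Testing took the genes that reached 1 TPM in 5 or more libraries, as log2(TPM + 1), which understates changes of low genes, with limma 3.58.1 in R 4.3.3 (trend, genotype only, 2-sided, Benjamini-Hochberg over 13930 genes, threshold 0.05). Differences are S452A minus WT on that scale. Single values were compared by exact permutation, and correlations by 100000 permutations (10000 for shares over all genes), in Python 3.11.15 with scipy 1.17.1, numpy 2.4.6 and pandas 2.3.3; plots used matplotlib 3.10.9. Copies were found among GENCODE M21 transcripts with blastn 2.17.0. On data simulated for S452A against WT (13930 genes) the fit recovered 62.4% of genes shifted by 1 and 1.5% of those shifted by 0.5 on the log2 scale. The shifted genes were drawn from all genes tested, whose median coefficient of variation was 23.8%, against 11.1% for the members. Recovery for the members alone was not simulated. Values by library are given in the order of replicates 1 to 5.

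Library values are printed for the catalytic subunits, activators, inhibitor and core chaperones, the 5 members of smallest p in each direction, the highest and lowest of each role and the 3 most and least variable. Of the other pathway genes, the 3 of smallest p in each direction, the induced subunits and Nfe2l1 are named. The members, lists and rules were chosen with earlier results of these data known. Alternatives were pseudocounts of 0.1 and 5, no filter and a filter of 5 TPM, 3 rescalings, the mouse number as a block, a T cell covariate, robust moderation, leaving out each library, Spearman rho and genotype-centred values. The summing of copies, in genes and in ratios, and the alternatives for the marker correlations and pathway genes were added after the data were seen.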

Additional observations from a re-analysis of the deposited data

Results flagged for a closer look

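In 9 of 94 groups of 5 libraries, 1 library stood apart from the other 4 by Dixon's gap criterion, which chance meets in about 1 of 20 independent groups. The 94 groups are not independent, since they share libraries and the ratios use members that also count alone. The share of all genes tested that meets the criterion is not given, so 9 of 94 cannot be set against it. Psma2 was at 54.0 TPM in S452A replicate 5 and at 39.1 to 41.6 TPM in the other S452A libraries. Psma6 was at 161 TPM in WT replicate 3, below 176 to 181 TPM in the other WT libraries, and in the same library Psmc5 was at 86.8 TPM, above 75.9 to 78.5 TPM. Psmd1 was at 39.7 TPM in WT replicate 1, against 55.1 to 57.0 TPM. Psmd5 was at 25.2 TPM in WT replicate 4, against 15 to 16.7 TPM. Psmd8 was at 284 TPM in S452A replicate 2, against 325 to 337 TPM, and Psmd14 at 74.7 TPM in S452A replicate 4, against 87.8 to 92.3 TPM. WT replicate 2 stood apart in 2 ratios: Psmb8 over Psmb5 was 3.48, against 2.41 to 2.67, and Psmb10 over Psmb7 was 2.09, against 1.48 to 1.6.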

How the results depend on the processing

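No member passed the adjusted test under any alternative run, with the smallest adjusted p at 0.744 (limma, without S452A replicate 2). Without 1 library at a time, 0 to 1 members had an unadjusted p under 0.05 (Psmd8 without WT replicate 2), the median difference of the members ran from -0.02 to 0.02, their median pairwise r from 0.07 to 0.12, and 0 to 2 pathway genes were under an unadjusted 0.05. Among the 43 members 17 changed sign in at least 1 of these fits, 10 of them among the 31 whose values by library are printed. For those 31 and the ratios, ranges that crossed 0 were -0.12 to 0.01 for Psmb4, -0.04 to 0.03 for Psmc2, -0.04 to 0.02 for Psmc5, -0.05 to 0.08 for Psmd1, -0.04 to 0.08 for Psmd4, -0.01 to 0.10 for Psmd10, -0.06 to 0.06 for Psmd11 and Psme1, -0.06 to 0.10 for Psme3, -0.07 to 0.13 for Psmg1, -0.12 to 0.08 for Psmb8 over Psmb5 and -0.02 to 0.17 for Psme2 over Psme1. For the other members they were -0.07 to 0.03 for Psma4, -0.04 to 0.08 for Psmc4, -0.02 to 0.09 for Psmd3, -0.09 to 0.04 for Psmd6, -0.05 to 0.04 for Psmd7, -0.01 to 0.14 for Psmd9 and -0.01 to 0.06 for Psmd12. Differences that changed sign under the other settings were 0.01 for Psmc2 and 0.0045 for Psme1 (median-ratio rescaling), -0.02 for Psmd4, -0.0021 for Psmd11, -0.0073 for Psmc4 and -0.026 for Psmd7 (quantile normalization), -0.02 for Psmd4, Psmd11 and Psmg1, -0.01 for Psme3 and Psmc4, -0.03 for Psmd7 and -0.004 for Psmd12 (rescaling without mitochondrial, histone, immunoglobulin and ribosomal genes), and -0.04 for Psma5, -0.05 for Psme2 and -0.04 for Psme2 over Psme1 (copies summed). Rescaling without those gene classes gave a median pairwise r of 0.17; rho of Psmc4 with Psmc5 was -0.04, and r of Psmb5 with Psmb8 centred on genotype means was -0.24. The cause of these changes was not tested. By sign, quantile normalization gave 19 members higher and 24 lower, and median-ratio rescaling 25 and 18. Mouse numbers did not pair the samples (correlations of deviations from -0.148 to 0.074, none highest with its own number); with the replicate block 0 members were called, 613 in place of 660 genes had an unadjusted p under 0.05, and the smallest adjusted p of a member was 0.985. Depth is unknown, and at 5 libraries per genotype small shifts were rarely recovered on data simulated over all genes tested.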
